A study of Drosophila melanogaster with 6 samples.

Results

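The cytoplasmic ribosomal protein genes of Drosophila melanogaster were examined for binding of the microproteins Simba1 and Simba2. Members were all genes of the dm6 assembly whose symbol starts with RpL or RpS followed by a digit or P, which gave 92 of the 17684 genes placed on chromosomes X and 4 and the arms 2L, 2R, 3L and 3R. By symbol, 54 of these are large subunit genes (RpL) and 38 are small subunit genes (RpS), and all 92 are protein coding. Their gene spans ran from 304 to 4677 bp with a median of 1315 bp, against 1710 bp over all genes.

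Ribosomal proteins fold and stabilise the ribosomal RNA, and each mature ribosome needs a copy of nearly every one of them. Many of these genes are known in flies as Minute loci, at which loss of a copy slows growth and thins the bristles. Quiescent neural stem cells (NSCs) of the larval brain enlarge before they divide again, and this step depends on nutrient signalling through the insulin and mTor pathways, which also raise ribosome production.

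In DamID the bacterial methylase Dam is fused to a protein of interest and marks GATC sequences near the places that protein occupies, after which methylated fragments are cut out with DpnI, amplified and sequenced. The 3 groups carried UAS-Dam alone (pUAST attB-LT3-NDam), UAS-Dam-Simba1 or UAS-Dam-Simba2, all driven by grh-Gal4 with tub-Gal80ts, a heat-sensitive repressor that blocks Gal4 at low temperature. Every group started from a 4 h egg collection, spent 44 h at 18 °C and a further 24 h at 29 °C, and was then dissected, so the larvae of all groups were of the same age. There was 1 library of each group in each of 2 batches, and the labels do not say whether the batches were separate crosses, so every p-value measures only the spread between these libraries. The labels name neural stem cells, and the peak lists hold no expression values by which the cell type or the driver could be checked.

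Each of the 4 fusion libraries had its own list of peaks, called by the authors against the Dam control of the same batch. Simba1 and Simba2 of a batch therefore share a control, and only libraries of different batches have separate ones. After filtering, the fusion libraries held from 1069703 reads (Simba2 batch 1) to 1506081 reads (Simba1 batch 2), and the controls held 868080 reads in batch 1 and 1321104 in batch 2. The lists held 17254 peaks for Simba1 batch 1, 21026 for Simba1 batch 2, 22479 for Simba2 batch 1 and 35237 for Simba2 batch 2, and no peak had been removed by its q value. Any peak with a base in a gene span, or in the 1000 bp beyond either end, counted for that gene. Where a gene had several peaks in a library, the peak with the lowest q is called its best peak. Pileup (reads covering the summit, scaled within each list), fold enrichment over the local background of the Dam control (lambda) and q are the authors' MACS values throughout. They rank peaks only within their own list, and pileups and lambdas given in reads are scaled reads. Values for the 4 libraries follow the order Simba1 batch 1, Simba1 batch 2, Simba2 batch 1, Simba2 batch 2 where the libraries are not named.

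Listed peaks of any q lay at most ribosomal protein genes in 3 of the 4 libraries, as they did at most of all genes. In Simba1 batch 2 they lay at few of the members. For Simba1 a listed peak was present at 50 of the 92 genes in batch 1 (54.3%) and 23 in batch 2 (25%), and for Simba2 at 53 in batch 1 (57.6%) and 76 in batch 2 (82.6%). The shares over all genes, in the same order, were 51.1%, 46.6%, 58.9% and 77.4%. Over the 10192 protein coding genes with spans in the range of the members they were 44.8%, 40%, 53.5% and 76%. These genes of like span had a median span of 1597.5 bp, against 1315 bp for members, so they were matched by range only. The share at ribosomal protein genes was thus somewhat above that at genes of like span in 3 libraries and below it in Simba1 batch 2, the library with the most reads. With peaks counted only where they touched the gene span itself, the members' shares were 28.3%, 9.78%, 38.0% and 52.2% and those of genes of like span 27.5%, 23.0%, 34.0% and 54.8%, so Simba2 batch 2 then also stood below. With q limited to 0.05, the members with a peak numbered 37, 15, 40 and 62, or 40.2%, 16.3%, 43.5% and 67.4%, against 38.7%, 26.8%, 43% and 62.7% of all genes and 31.8%, 20.1%, 36.9% and 59% of genes of like span. The exact 95% Clopper-Pearson intervals of the 4 shares of listed peaks were 43.6 to 64.8%, 16.6 to 35.1%, 46.9 to 67.9% and 73.3 to 89.7%. They cover counting error only.

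Simba2 libraries had peaks at 64.5 ± 16.3 members and Simba1 libraries at 36.5 ± 19.1 (SD, n = 2 each), a difference of 28 genes. The exact two-sided permutation p was 0.333, the smallest that 2 libraries against 2 can give, and 0.667 after Benjamini-Hochberg adjustment over 4 comparisons. The batches differed in it. Within batch 1 Simba2 had 3 more members with a peak, and within batch 2 it had 53 more. Without Simba1 batch 2 the difference between the means was 14.5 genes.

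**Figure D1:**
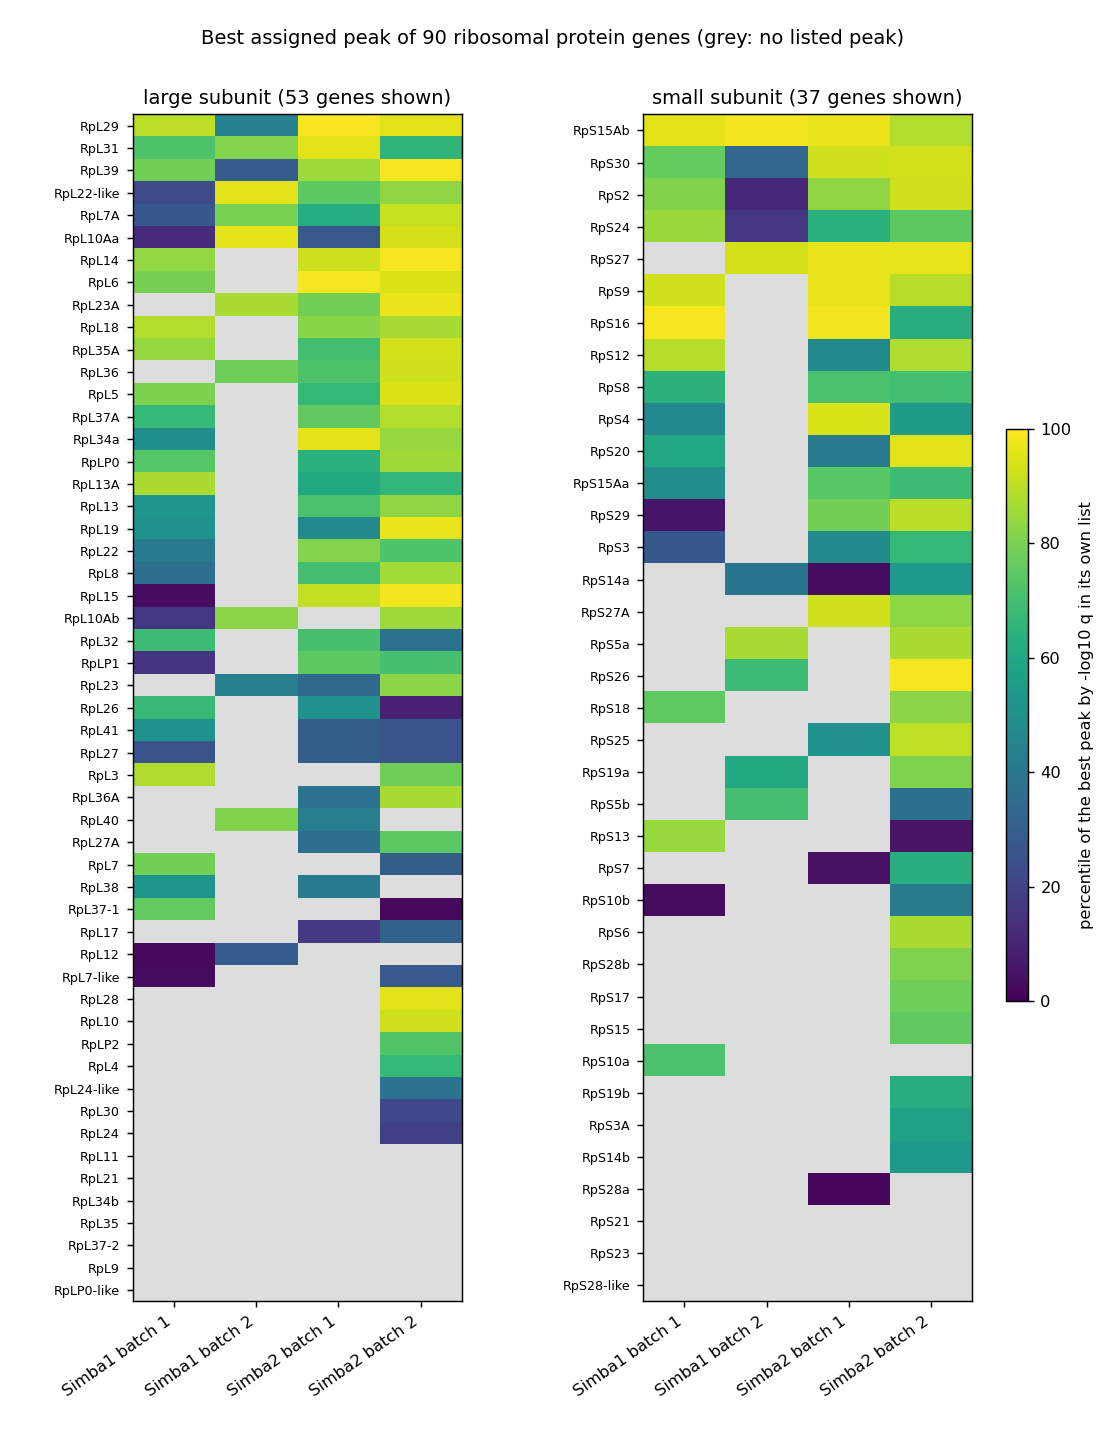
Best assigned peak of 90 of the 92 ribosomal protein genes (rows, large subunit left, small subunit right) in the 4 libraries (columns); colour gives the percentile of the best peak by -log10 q among all peaks of its own list, and grey marks no listed peak. The Simba1 batch 2 column is mostly grey, with a peak at 22 of the genes shown, while the Simba2 batch 2 column holds a peak at 75.

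Large subunit genes had a peak more often than small subunit genes in batch 1 and about as often in batch 2. Of the 54 large subunit genes, Simba1 had peaks at 33 in batch 1 (61.1%) and 13 in batch 2 (24.1%), and Simba2 at 34 (63%) and 44 (81.5%). The corresponding counts for the 38 small subunit genes were 17 (44.7%), 10 (26.3%), 19 (50%) and 32 (84.2%). The large subunit share was 16.4 and 13 percentage points higher in the batch 1 libraries of Simba1 and Simba2, which share a Dam control, and 2.24 and 2.73 points lower in the batch 2 libraries. The exact intervals of the subunits overlapped in every library, from 46.9 to 74.1% for large and 28.6 to 61.7% for small subunit genes in Simba1 batch 1. These intervals treat the genes of a library as independent, and their overlap is not a test of the difference between the subunits. The gap between the subunits was 5.12 ± 11.1 points for Simba2 and 7.07 ± 13.2 for Simba1 (SD, n = 2 each), a difference of -1.95 points (exact permutation p = 0.667, adjusted 0.667). Libraries of 1 protein thus differed from each other in this gap by more than the proteins did. With q limited to 0.05 the large subunit share was 5.75, 0.877 and 6.82 points higher in the first 3 libraries and 15.2 points lower in Simba2 batch 2.

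**Figure D2:**
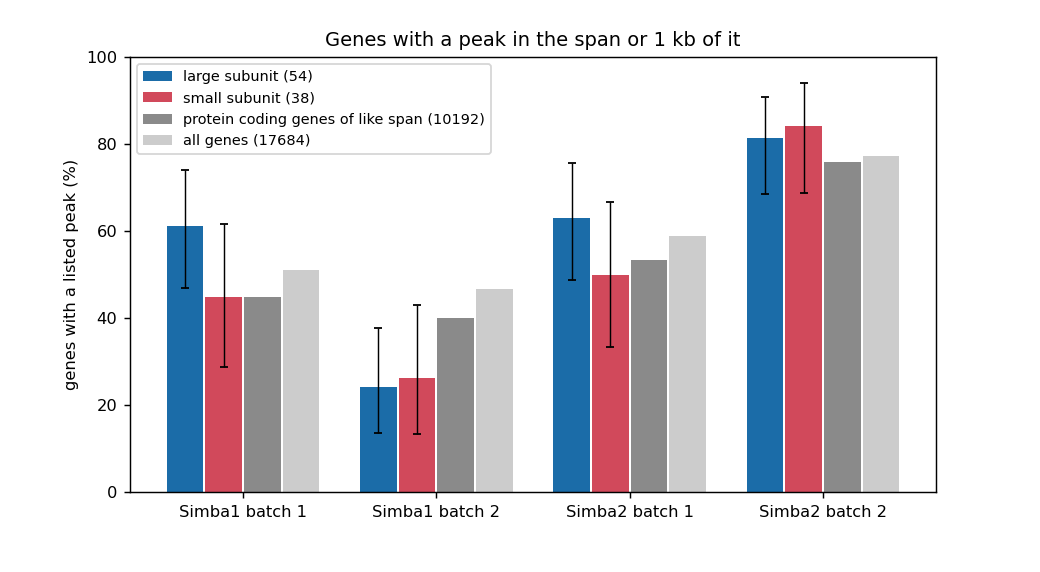
Percentage of genes with a listed peak in the gene span or within 1 kb of it, for large subunit genes, small subunit genes, protein coding genes of like span and all genes in the 4 libraries; bars start at 0 and error bars are exact 95% binomial intervals for the 2 subunit groups. Both subunit groups stand below the grey bars in Simba1 batch 2, at 24.1% and 26.3%, and the intervals of the subunits overlap in every library.

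Peaks at ribosomal protein genes had high pileups over a high local background, and their fold enrichment was ordinary for their lists. The median pileup of all member peaks was 14.6, 11.8, 13.8 and 16 reads, against 8.74, 8.77, 8.12 and 10 over all peaks on the arms. The median lambda was also higher, at 4.24, 3.40, 4.74 and 5.68 reads against 2.02, 2.64, 2.01 and 3.21. The median fold enrichment was 2.68, 2.74, 2.70 and 2.40 at member peaks and 2.95, 2.67, 2.79 and 2.45 over all peaks. Peaks at genes of like span lay between, with a median pileup of 10.9, 9.65, 10.6 and 12 and a median lambda of 3.00, 2.99, 3.00 and 3.84 reads. The median best peak of a member stood at the percentile 77.9, 81.3, 84.5 and 82.4 of its list by pileup, against 70.1, 65.5, 70.7 and 69.1 for genes of like span. This median was 83.4 ± 1.5 for Simba2 and 79.6 ± 2.46 for Simba1 (SD, n = 2 each), a difference of 3.81 points (exact permutation p = 0.333, adjusted 0.667). The difference was 6.61 points within batch 1 and 1.01 within batch 2. With all lists shortened to 17254 peaks it was 7.36 points, with 6.61 and 8.10 within the batches, and with no flank it was -0.41 points.

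**Figure D3:**
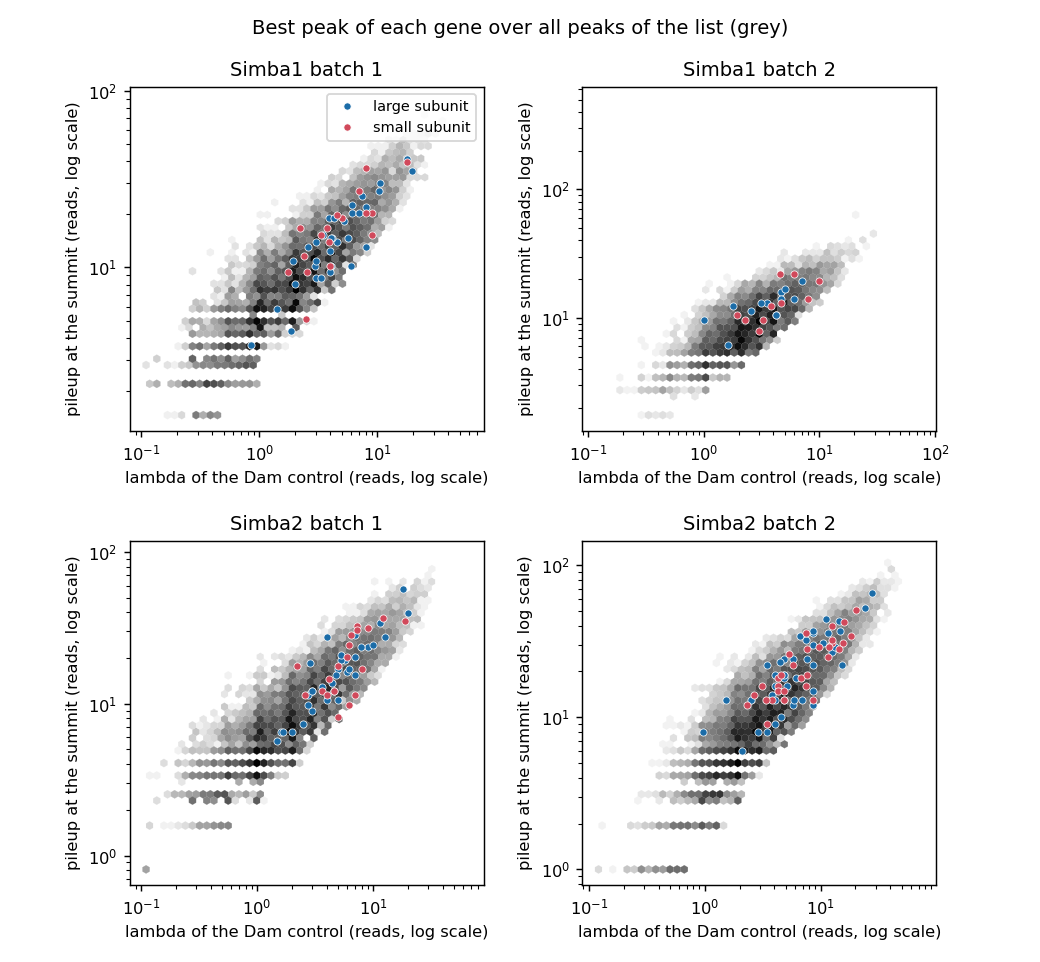
Pileup at the summit against lambda of the Dam control (reads, both log scales) in each library; grey shading counts all peaks of the list, darker for more, and points are the best peaks of large (blue) and small (red) subunit genes. Most points sit in the upper right of the grey cloud, at higher pileup and higher lambda than most peaks, with median pileups of the best peaks from 13.2 to 19 reads.

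Summits lay close to the ends of these short genes, at distances like those at other genes of like span. The median distance from a summit to the nearer end of the gene span was 405 and 527 bp in Simba1 batches 1 and 2 and 344 and 452 bp in the Simba2 batches. For genes of like span it was 450, 496, 473 and 517 bp. Summits within 250 bp of an end made up 28.8%, 20.7%, 35.2% and 29.0% of the member peaks, and those within 500 bp made up 61.0%, 48.3%, 59.2% and 53.4%. Summits inside the gene span made up 28.8%, 34.5%, 33.8% and 32.1%, against 34.5%, 36.0%, 36.4% and 39.1% at genes of like span. Most summits assigned to a ribosomal protein gene therefore lay beside it and not in it. The median distance was 398 ± 76.4 bp for Simba2 and 466 ± 86.3 bp for Simba1 (SD, n = 2 each), a difference of -68 bp (exact permutation p = 0.667, adjusted 0.667), with -61 bp in batch 1 and -75 bp in batch 2. The batch 1 value turned to 4.5 bp with q limited to 0.05 and 39 bp with no flank, and the whole difference was -1.25 bp with q limited to 0.001 and -7 bp without Simba1 batch 2. Small subunit genes had median distances of 346, 476.5, 330 and 437 bp, and large subunit genes 424, 677, 371 and 454.5 bp, so the small subunit median over all member peaks was the lower in each of the 4 libraries. Over best peaks alone it was 519.5 bp in Simba2 batch 2, against 454.5 bp for large subunit genes.

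Another annotated gene reached into the window of 88 of the 92 members. Of the 59, 29, 71 and 131 assignments of a peak to a member, 28, 12, 41 and 64 touched the member's own span, and 42, 18, 47 and 88 touched the span of another gene. The peak lists cannot tell which of the neighbours a peak belongs to. The gene table gives no strand, so start and end of a gene were not separated.

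**Figure D4:**
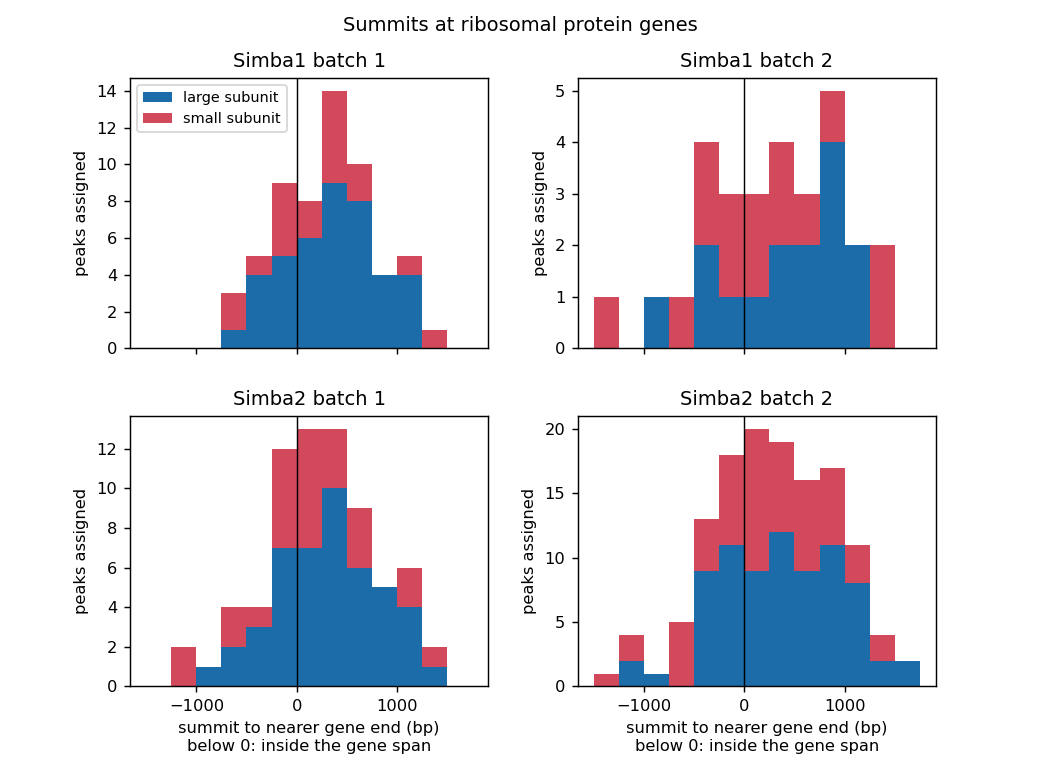
Distance from each assigned summit to the nearer end of the gene span (bp; negative inside the gene, positive outside) in bins of 250 bp, stacked for large and small subunit genes in each library. Most summits fall on the positive side, and the medians of the absolute distance run from 344 to 527 bp.

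The batches had many ribosomal protein genes in common for Simba2 and few for Simba1. For Simba2, 50 members had a peak in both batches (54.3%), against 51.3% of all genes and 45% of genes of like span. These 50 were 94.3% of the members with a peak in batch 1 and 65.8% of those in batch 2, where the figures over all genes were 87.1% and 66.3%. For Simba1, 13 members had a peak in both batches (14.1%), against 28.8% of all genes and 20.2% of genes of like span. These 13 were 26% of the members with a peak in batch 1 and 56.5% of those in batch 2. The figures over all genes were 56.3% and 61.7%. By subunit, the Simba2 members with a peak in both batches were 32 large and 18 small, and the Simba1 members were 9 large and 4 small. With q limited to 0.05 in both batches, 38 members had a peak for Simba2 (41.3%, against 34.5% of all genes and 27.3% of genes of like span) and 3 for Simba1 (3.26%, against 14.7% and 7.63%).

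Position was compared as well as presence. Peaks of both batches shared at least 1 bp at 44 of the 50 Simba2 members (47.8% of the 92, against 42.4% of all genes) and at 10 of the 13 Simba1 members (10.9%, against 17.5% of all genes and 11.9% of genes of like span). Among genes with a peak in both batches these were 88% of Simba2 and 76.9% of Simba1 members, against 82.6% and 60.9% of all such genes. The best peaks themselves shared bases at 30 Simba2 and 7 Simba1 members, or 60% and 53.8% of those with a peak in both batches. This compares with 44.8% and 29.3% of all such genes and 54.5% and 41.9% of those of like span. The median gap between the best summits was 202.5 bp for Simba2 and 233 bp for Simba1, against 323 and 867 bp at genes of like span. Over the members with a peak in both batches, the best pileups of the batches had a Spearman rho of 0.736 for Simba2 (n = 50 genes) and 0.488 for Simba1 (n = 13 genes). The points of a batch share a library and a control, genes of like span gave 0.699 and 0.493, and genes are not independent replicates. By the percentile of -log10 q the rho was 0.331 for Simba2 and -0.201 for Simba1.

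**Figure D5:**
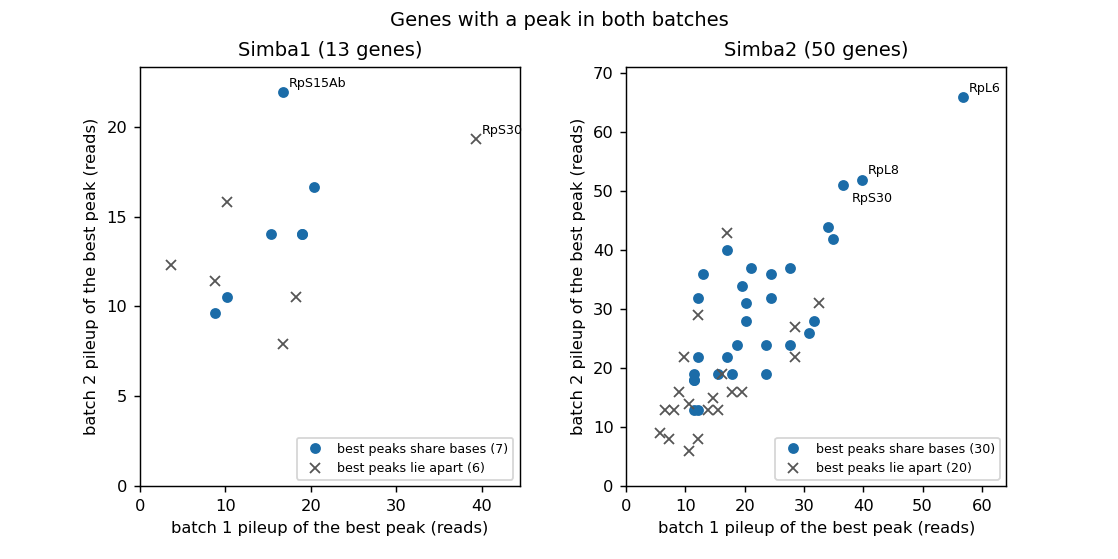
Pileup of the best peak in batch 2 against batch 1 (reads) for the 13 ribosomal protein genes with a peak in both Simba1 batches (left) and the 50 with a peak in both Simba2 batches (right); circles mark genes whose best peaks share bases and crosses those whose best peaks lie apart. For Simba2, RpL6, RpL8 and RpS30 lie highest in both batches, with RpL6 at 56.8 and 66 reads.

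Comparison of the proteins across batches, with separate controls, gave a like split. Simba1 batch 1 and Simba2 batch 2 had 47 members in common, which were 94% of the Simba1 members and 61.8% of the Simba2 members, and their peaks shared bases at 39 of them. Over all genes these figures were 88.4% and 58.4%, with shared bases at 6578 of 7994 genes. At genes of like span they were 86.0% and 50.7%, with shared bases at 3196 of 3928. Simba1 batch 2 and Simba2 batch 1 had 17 members in common, 73.9% of the former and 32.1% of the latter, with shared bases at 11. Over all genes the figures were 69.3% and 54.9%, with shared bases at 3645 of 5719 genes. At genes of like span they were 59.5% and 44.5%, with shared bases at 1501 of 2423.

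A peak in every library was found at 11 members, or 12% against 24.1% of all genes and 15.2% of genes of like span, where libraries of a batch share their control. Among them were the large subunit genes RpL7A, RpL10Aa, RpL22-like, RpL29, RpL31 and RpL39 and the small subunit genes RpS2, RpS15Ab, RpS24 and RpS30. The q value was 0.05 or lower in all 4 libraries at 3 members, RpL31 and RpS15Ab among them. The share over all genes under that rule was not counted, so this number has no background. The same 3 members were all those with q of 0.05 or lower in both Simba1 batches. That rule held at 3.26% of members, 14.7% of all genes and 7.63% of genes of like span.

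RpS15Ab, the second copy of the gene for the small subunit protein S15A (Entrez gene 36142, chr2R:10821676-10822399), had fold enrichments of 5.57 and 4.16 in Simba1 batches 1 and 2 and 5.88 and 3.62 in Simba2 batches 1 and 2. The q values were 3.17e-07, 1.05e-05, 5.45e-08 and 1.77e-05. The folds in both batch 1 libraries were the highest of any member's best peak there, and batch 1 was higher than batch 2 for both proteins. The bases common to all 4 peaks, chr2R:10823126-10824081, began 727 bp outside the gene and lay over CG12343 and CG12325, which are not ribosomal protein genes. The main copy, RpS15Aa, had a peak in 3 libraries and none in Simba1 batch 2.

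RpL31, which lies at the rim of the peptide exit tunnel (gene 35988, chr2R:9587193-9587989), had fold enrichments of 2.67, 2.94, 3.68 and 2.08. Its peaks shared the bases chr2R:9586170-9586395, 798 bp outside the gene and over CG12929. The summits there lay at 9586264 and 9586325 in Simba1 and at 9586265 and 9586309 in Simba2, although in Simba2 batch 2 this peak had q = 0.0952 and the best peak lay at the other end of the gene.

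RpL29 (gene 37430, chr2R:21293768-21294404) had fold enrichments of 4.09 and 2.15 for Simba1 and 5.72 and 4.31 for Simba2. Its q values were 1.75e-05, 0.0914, 3.36e-11 and 5.47e-08, so Simba1 batch 2 did not pass 0.05. The common bases, chr2R:21295258-21295824, lay 854 bp outside the gene and over CG9752 and Arms.

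RpL22-like and RpS2 were the members with a peak in every library whose common bases lay in the gene itself. RpL22-like, a paralog of RpL22 known for its expression in the germline (gene 37684, chr2R:23246610-23247893), had a best fold of 2.44 and 5.32 for Simba1 and 3.29 and 4.59 for Simba2, with q = 0.137 in Simba1 batch 1. The 3.29 of Simba2 batch 1 came from a peak 622 bp outside the gene, and the peak inside it there had a fold of 1.87 and q = 0.566. In batch 2 its best peaks had low pileups of 9.65 reads (Simba1) and 8 reads (Simba2), over lambdas of 1.00 and 0.96. The median lambda over all peaks on the arms was 2.64 and 3.21 in those libraries. RpS2, which lines the mRNA entry region of the small subunit (gene 34309, chr2L:9896265-9897552), had folds of 3.32, 1.67, 3.04 and 3.34, with q = 0.398 in Simba1 batch 2. Its common bases, chr2L:9897143-9897565, overlapped the gene by 410 bp.

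RpS30 encodes a small subunit protein made as a fusion with a ubiquitin-like domain (gene 42470, chr3R:20850516-20851427). Its best peaks had pileups of 39.3, 19.3, 36.5 and 51 reads over lambdas of 18.0, 10, 12.3 and 20.2, and folds of 2.12, 1.85, 2.83 and 2.46. High pileup and modest fold thus went together at this gene. Peaks lay on both sides of it in 3 libraries, and Simba1 batch 2 had the peak on the Ir93a side alone, which is where the common bases of all 4 libraries lay, 5 bp outside the gene.

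RpL7A, RpS24, RpL10Aa and RpL39 had a peak in every library with less regular positions. RpL7A (gene 31588) had best folds of 2.23, 2.99, 2.46 and 3.99, with common bases of 98 bp, 760 bp outside the gene and over Agxt. RpS24 (gene 37589) had its best peaks inside the gene in Simba1 batch 1 and both Simba2 batches, with folds of 3.75, 2.83 and 3.20, and a peak of fold 2.22 outside it in Simba1 batch 2. RpL10Aa (gene 41811), a second copy of the L10A gene, had folds of 2.50, 4.75, 2.50 and 5.54, with q = 0.305 and 0.147 in batch 1 and 0.0001 and 5.27e-07 in batch 2. Its best peaks had pileups of 3.64, 12.3, 6.49 and 13 reads over low lambdas of 0.858, 1.80, 2.00 and 1.53. RpL39, which encodes a short protein of the exit tunnel (gene 37849, chr2R:24061853-24062431), had folds of 3.07, 2.22, 3.25 and 4.55, and in Simba1 batch 2 its peak lay at the opposite end from the best peaks of the other libraries.

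RpL12, which binds at the base of the ribosomal stalk, was the only member with peaks in both Simba1 batches and no Simba2 batch (gene 45329, chr2R:24060378-24061860). This is 1.09% of members, against 0.594% of all genes and 0.657% of genes of like span. The RpL12 peaks were weak, with folds of 1.60 and 2.22 and q values of 0.688 and 0.171. Both were the same peaks that were assigned to its neighbour RpL39.

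Some of the best peaks of Simba2 were at genes that lacked a peak in Simba1 batch 2, which had a peak at only 23 of the 92 members. RpL6 (gene 43723, chr3R:31594792-31596204) had a pileup of 40.8 reads in Simba1 batch 1 and of 56.8 and 66 reads in the Simba2 batches, over lambdas of 18.0, 18.0 and 27.8, and no peak in Simba1 batch 2. The folds were 2.20, 3.04 and 2.32, with q = 0.000542, 7.96e-10 and 1.48e-07. The summits lay at 31596478, 31596485 and 31596482, between 274 and 281 bp from the gene end on the side of CycG. RpL8, chosen here after its values were seen, had summits 1194, 1194 and 1193 bp from its end in the same 3 libraries, with folds of 1.74, 1.96 and 2.12. RpL6 and RpL8 had the closest summits of the 34 members at which peaks of those 3 libraries shared bases. Over these 34 the summits spanned a median of 161 bp and at most 727 bp, and at 7 they lay within 50 bp. The same spread was not counted at other genes, and the GATC sites at which the fragments are cut were not analysed.

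RpL14 (gene 38983, chr3L:8601006-8602392) had folds of 2.68, 2.82 and 3.68 in those libraries, with summits 290, 251 and 289 bp outside the gene over Nelf-E, which encodes a subunit of the negative elongation factor. RpL15 (gene 3354918, chr3L:27267255-27268445) had folds of 1.57, 3.51 and 3.94, and only the Simba2 values passed a q of 0.05, at 2.31e-05 and 3.5e-10. RpS9 (gene 39108, chr3L:9509793-9511531) had best folds of 3.49, 3.96 and 3.40, and the peak near its CG3408 end was present in all 3 libraries.

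RpS27 differed from these in that Simba1 batch 2 had its peak and Simba1 batch 1 did not (gene 43039, chr3R:25245955-25247514). Its best fold was 3.28 in Simba1 batch 2 and 3.86 and 4.25 in the Simba2 batches, with q = 0.000385, 8.6e-08 and 2.4e-08. The summits, at 25246260, 25246272 and 25246278, lay inside the gene between 305 and 323 bp from its end.

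Peaks in both Simba2 batches and neither Simba1 batch were assigned to 6 members, or 6.52%, against 5.78% of all genes and 6.99% of genes of like span. RpS27A encodes a small subunit protein fused to ubiquitin, and its best peaks had folds of 3.55 and 2.45 with q = 5.8e-06 and 0.000152, with summits 1206 and 1299 bp beyond the gene end and over CG5355. A Simba1 batch 1 peak overlapped these peaks but began at 10411527, beyond the 1000 bp window, and the outer peak of RpL27A likewise overlapped Simba1 peaks that began outside its window. RpS25 had folds of 1.79 and 2.52 and pileups of 34.9 and 42 reads, 107 and 210 bp inside its end. RpL36A had folds of 2.05 and 3.45, RpL27A 2.30 and 3.10, RpS7 1.55 and 2.31, and RpL17 1.92 and 2.27. RpS27A and RpS25 were those of the 6 with q of 0.05 or lower in both batches. At RpS7 the summits of the batches lay 1184 and 1207 bp inside the gene, over the small nucleolar RNA genes snoRNA:Psi18S-1377a and snoRNA:Psi28S-2626 that lie in its span.

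The ribosomal stalk, which recruits the elongation factors, is formed by RpLP0, RpLP1 and RpLP2, named here for that role. RpLP0 had peaks of fold 2.49, 2.11 and 2.42 as the best in Simba1 batch 1 and Simba2 batches 1 and 2, all outside the gene at 870 to 1274 bp. Both Simba2 batches had a further peak at its other end, with folds of 2.41 and 1.70. RpLP1 had best peaks of fold 2.09, 3.29 and 2.39 in the same libraries, and RpLP2 a single peak of fold 2.67 in Simba2 batch 2. None of the 3 had a peak in Simba1 batch 2.

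No peak was listed in any library at 11 members, which is 12% against 10.1% of all genes and 10.4% of genes of like span. Among them were RpL9, RpL11, RpL21, RpL34b, RpL35, RpL37-2, RpLP0-like, RpS21, RpS23 and RpS28-like. RpL11 belongs to the 5S particle of the large subunit and RpS23 to the decoding centre of the small subunit. The share without a peak was close to both backgrounds, so no common trait is read from these genes. The other 70 members had a peak in 1 to 3 libraries.

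Several proteins have a second gene, often with germline expression. As secondary copies 13 members were set apart, a group that also takes in genes named -like. They had a peak at 6, 4, 5 and 8 of 13 genes in the 4 libraries (46.2%, 30.8%, 38.5% and 61.5%). The other 79 members had one at 44, 19, 48 and 68 (55.7%, 24.1%, 60.8% and 86.1%). Over all genes the shares were 51.1%, 46.6%, 58.9% and 77.4%, and over genes of like span 44.8%, 40%, 53.5% and 76%. The pairs went both ways. RpL10Aa, RpL22-like and RpS15Ab had a peak in all 4 libraries and their main copies in 3, and the secondary copy RpL34a had a peak in 3 libraries and its main copy RpL34b in none. RpLP0-like and RpL37-2 had none, whereas RpLP0 and RpL37-1 had a peak in 3 and 2 libraries. RpLP0-like, RpL7-like and RpL24-like resemble factors that assemble the large subunit in yeast. Their place among the large subunit genes and the secondary copies rests on their symbols alone. The sources used here do not give how reads from near-identical copies were placed, so values at paralogs are uncertain. This applies most to the tandem genes RpS14a and RpS14b, which shared a single peak of fold 2.41 in Simba2 batch 2 between them (chrX:7934377-7935077).

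Gene length and position gave a few further values. RpS5a, the longest member at 4677 bp, had a best fold of 3.93 in Simba1 batch 2 and 4.08 in Simba2 batch 2 and no peak in batch 1. RpS28a, the shortest at 304 bp, had a single peak in Simba2 batch 1 with a fold of 1.5 and q = 0.976. RpS3A, the member on chromosome 4, had a single peak of fold 1.82 in Simba2 batch 2 (q = 0.0142).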

How the data were processed

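The submitters' processing notes name bcl2fastq 2.19.0.316, FastQC, Bowtie2, ChIPseeker and the build dm6, and how reads were trimmed or aligned is not given in the sources used here. Peaks of every fusion library were called singly with MACS 3.0.0, per the file headers, over the Dam library of that batch, with a q limit of 1 and an effective genome size of 2910000000 bp, far above the 134 Mb of the arms used here. The deposited pileup signal is scaled within each list, the deposited p and q, given as -log10 values, come from a Poisson test against lambda, and the deposited fold enrichment is the ratio of pileup plus 1 to lambda plus 1. Lambda was recovered from that ratio, and 99.3 to 100% of deposited p-values were matched within 0.01 on the -log10 scale. Precision is limited by the 1069703 to 1506081 reads per library.

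Gene spans are those of RefSeq for Release 6, the build the peaks use. Overlap needed 1 bp. The assignment was tested on simulated data, and all computing used Python 3.11.15 with pandas 2.3.3, numpy 2.4.6, scipy 1.17.1 and matplotlib 3.10.9. The members, the related gene lists and the tests were chosen with earlier results of these data known. Groups and batches follow the labels, and the batch pairs Simba1 with Simba2 through a shared Dam control. Named genes were members with a peak in all 4 libraries, the 8 highest per protein by mean percentile of the best -log10 q among members with a peak in both batches and the 6 highest with overlapping best peaks, up to 6 with peaks in both batches of 1 protein only, the longest and shortest, those on chromosome 4 and pairs sharing a peak, which gave 28 members, and up to 4 genes per related list. Alternatives changed the q limit, the flank, the lambda, the list length and the libraries. Gene strand, start sites, GATC sites, promoter motifs and sequences were not analysed here. All counts are over the 92 members, of which 2 are not reported here by name.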

Additional observations from a re-analysis of the deposited data

How the results depend on the processing

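Of the values recomputed under other settings, 22 counts moved by over 1.5 times and 2 differences reversed. The other 69 were counts nearer than that or differences with the same sign, whose size could still change. Leaving out a batch, the Simba2 minus Simba1 difference in members ranged from 3 to 53, and its batch 1 part was -1 at q of 0.001 or lower and in lists of equal length. The difference between proteins in the large minus small subunit gap became 0.54 points with a 500 bp flank, and that in the pileup percentile became -0.41 points with no flank. The cause was not tested. Simba1 members with a peak in both batches (13) numbered 3 at q of 0.05 or lower, 1 at q of 0.001 or lower, 3 with no flank, 7 with a 500 bp flank and 3 with lambda raised to the arm average. Those with overlapping peaks (10) numbered 3, 1, 3, 6 and 3. Simba2 members with a peak in both batches (50) numbered 13 at q of 0.001 or lower and 28 with no flank, and those with overlapping peaks (44) numbered 12 and 23. Members with a peak in all 4 libraries (11) numbered 3, 1, 2, 5 and 3 under those 5 settings. Leaving out a batch gave 21 and 40 members with a peak in every library left, which is by construction a weaker demand. Without Simba1 replicate 2, a setting chosen after seeing the data, it was 39, and the differences between proteins were 14.5 members, -11.3 points of subunit gap, -7 bp and 5.55 percentile points. With batch as a replicate block the differences are by construction the same (28 members, -1.95 points, -68 bp and 3.81 points), and the exact permutation p cannot go below 0.5, so the block could change no call. Median pileups of 11.8 to 16 reads limit the precision of each peak, and 2 libraries a group cannot reach p of 0.05.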

Other observations

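Other genes of ribosome production were counted beside the ribosomal protein genes. Of 34 translation factors, 17, 11, 22 and 29 had a peak in the 4 libraries (Simba1 batches 1 and 2, then Simba2 batches 1 and 2). These were 50%, 32.4%, 64.7% and 85.3%, against 51.1%, 46.6%, 58.9% and 77.4% of all genes, and their median span was 2747.5 bp. By mean percentile of the best -log10 q, the highest of those with a peak in every library was eRF1. It releases the finished protein at stop codons and had folds of 5.29 and 3.03 for Simba1 and 5.83 and 4.95 for Simba2. By the same measure eIF5B, eIF3l and eIF2beta followed, and the order by fold differed between libraries. Of 26 ribosome assembly and rRNA synthesis genes, 13, 11, 16 and 23 had a peak (50%, 42.3%, 61.5% and 88.5%). Nop60B, the pseudouridine synthase of box H/ACA particles, had folds of 4.13, 3.16, 4.79 and 3.12. Nph and Nlp, neighbours that share their best peaks, had folds of 3.69, 2.28, 3.61 and 3.14, and Ns1 also had a peak in all 4 libraries. Of 12 regulators of ribosomal protein gene transcription and growth, 11, 9, 11 and 12 had a peak (91.7%, 75%, 91.7% and 100%), over a much longer median span of 9495 bp. Mnt, the partner of Max that opposes Myc, had folds of 5.68, 3.66, 8.53 and 3.99 over a span of 29872 bp. Thor, the translation repressor 4E-BP, had folds of 2.26, 4.08, 2.53 and 5.32 over 1179 bp, and mTor and Taf1 also had a peak in every library. Of the ribosomal proteins outside the symbol rule, sta had a peak in all 4 libraries, with folds of 4.13, 2.24, 2.77 and 2.16.

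Small nucleolar RNA genes lay in the span of 28 ribosomal protein genes, 74 in all. These host genes had a peak at 15, 4, 18 and 26 of 28 genes in the 4 libraries, and the other 64 members at 35, 19, 35 and 50 of 64, where genes of like span had a peak in 44.8%, 40%, 53.5% and 76%.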
